A study of Bos grunniens with 6 samples.

Results

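miR-21 was followed through both products of its hairpin, miR-21-5p and miR-21-3p, in cultured cells of the yak (Bos grunniens) hair follicle. The members are the 2 entries of the deposited small-RNA table named bta-miR-21-5p and bta-miR-21-3p, the cattle names of these arms, out of 2853 listed entries. Small RNA had been sequenced from dermal papilla cells (3 libraries), mesenchymal cells enclosed by the hair bulb that signal to the epithelium around them, and from hair matrix cells (3 libraries), the dividing epithelial cells that build the hair shaft. Both groups are labelled wild type, came from skin, and were isolated and grown in the same DMEM/F12 medium with serum, IGF1, EGF and antibiotics. The labels call the libraries biological replicates without naming animals or cultures, so a p-value here is set by how far these libraries spread, which may be technical. Values are reads per 1000000 (RPM), scaled to library totals of 23904796 to 24693655 reads, of which the listed entries hold 71.7% to 73.5%.

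miR-21 is one of the most studied animal miRNAs. Its hairpin lies at the end of the VMP1 gene in human and mouse, and its transcription is driven by AP-1 and STAT3. The 5p arm is the guide strand that enters Argonaute, and it is known to repress PDCD4, SPRY1 and TIMP3, which restrain growth, survival or matrix turnover. In skin it is known from wound healing, from BMP and TGF-beta responses of keratinocytes, and from activated fibroblasts. The 3p arm is the passenger strand, most of which is degraded.

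The sequences of both arms are shown as the table lists them, in DNA letters from 5′ to 3′, with the seed in capitals. The seed, bases 2 to 8, chooses most targets. Beside them stand the other abundant miRNAs against which miR-21-5p is set below.
miR-21-5p: tAGCTTATcagactgatgttgact
miR-21-3p: aACAGCAGtcgatgggctgtct
let-7i: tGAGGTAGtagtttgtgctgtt
miR-27b: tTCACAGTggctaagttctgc
miR-184: tGGACGGAgaactgataagggt

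Neither seed of miR-21 was shared with any other listed entry, whereas 242 of 503 tested entries share theirs with at least 1 other. No listed entry was nearly identical to an arm, which would mean no more than 1 mismatch in an alignment of 18 or more bases. The closest entry differed from miR-21-5p at 6 positions of such an alignment and from miR-21-3p at 5. The listed sequences of the arms, which are 24 and 22 bases long, could form 18 base pairs with each other when folded as a duplex. No genome position or build is named in the sources used here.

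The labelled cell types were checked against marker miRNAs. The 5 mesenchymal markers (miR-143, miR-145, miR-214 and both arms of miR-199a) summed to between 84688 and 87633 RPM in dermal papilla libraries, against 1159 to 1367 RPM in hair matrix libraries. The 9 epithelial markers (the miR-200 family, miR-205 and the miR-183 cluster) summed to 93.8 to 123 RPM in dermal papilla libraries, against 26523 to 26594 RPM in hair matrix libraries. Blood markers summed to 17.2 to 19.5 RPM in dermal papilla libraries and 7.53 to 10.9 RPM in hair matrix libraries, nearly all of it miR-451. Endothelial markers summed to 3.68 to 4.70 RPM and 2.57 to 4.01 RPM in dermal papilla and hair matrix libraries. Muscle markers stayed at or under 1.26 RPM, and the melanocyte marker miR-211 had no read in dermal papilla libraries and at most 0.0810 RPM in hair matrix libraries. The part of other cell types in the miR-21 values was not tested.

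miR-21-5p was the most abundant entry of all 6 libraries and was lower in dermal papilla cells than in hair matrix cells. It was at 255201, 255453 and 237953 RPM in the dermal papilla libraries, against 353309, 340603 and 338707 RPM in the hair matrix libraries. The cell types did not overlap, and the lowest hair matrix library stood well above the highest dermal papilla library. The means were 249535 ± 10032 RPM in dermal papilla cells, against 344206 ± 7940.0 RPM in hair matrix cells (SD, n = 3 each), a 1.38-fold higher level in hair matrix cells. The log2 change, dermal papilla minus hair matrix on the log2(RPM + 1) scale, was -0.46 ± 0.035 (SE, limma adjusted p = 9.85e-06). RPM are relative values, so less miR-21 per cell and more of the other small RNAs cannot be told apart from this difference. Quantile normalization gives the top entry of each library the same value, and with it the change of miR-21-5p was 0 by construction.

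miR-21-3p was also lower in dermal papilla cells, but at a level near the lower end of what was tested. It was at 1.72, 1.09 and 1.32 RPM in the dermal papilla libraries, against 3.40, 2.61 and 2.83 RPM in the hair matrix libraries. These values rest on 41, 26 and 32 reads in dermal papilla cells and on 84, 64 and 68 reads in hair matrix cells. The cell types again did not overlap, although the spread within a cell type was wider than for the 5p arm. The means were 1.37 ± 0.318 RPM in dermal papilla cells, against 2.95 ± 0.407 RPM in hair matrix cells, a ratio of means of 2.15 in favour of hair matrix cells. The log2 change was -0.74 ± 0.13 (SE, limma adjusted p = 0.00111) on the log2(RPM + 1) scale, and the added 1 makes this change smaller than that of RPM for so low an entry. On recovered whole reads it was -1.13 with edgeR (adjusted p = 0.00155) and -1.04 with DESeq2 (adjusted p = 0.00197).

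**Figure D1:**
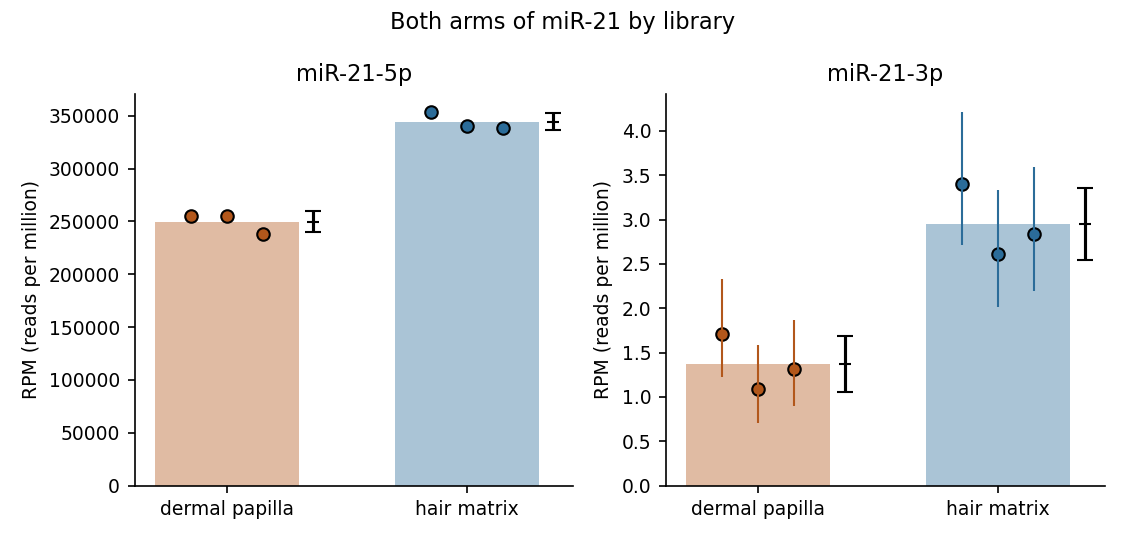
RPM of miR-21-5p (left) and miR-21-3p (right) in dermal papilla and hair matrix libraries, with bars for means, black bars to their right for the SD (n = 3), points for single libraries, and thin lines on the miR-21-3p points for exact 95% Poisson intervals of its reads. Both arms lie lower in every dermal papilla library than in every hair matrix library.

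Both arms thus had an adjusted p under 0.05 in the direction of lower dermal papilla levels, which 40.6% of the 503 tested entries had (82.7% in either direction, 42.1% with higher dermal papilla levels). Groups without overlap in this direction were found in 42.3% of tested entries (84.1% in either direction, 41.7% in the other one), so neither property sets miR-21 apart. Neither arm reached a 2-fold change in limma with the scaling as deposited, a size that 19.9% of tested entries reached with lower and 45.1% with lower or higher dermal papilla levels. Both had an unadjusted limma p under 0.05. With edgeR and DESeq2 on whole reads, 1 of the arms, miR-21-3p, passed 2-fold, as it did in limma after median centring (-1.01, adjusted p = 0.00021). By size of change, miR-21-5p ranked 367 and miR-21-3p 292 among the 503.

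The coefficient of variation of miR-21-5p between libraries was 4.02% in dermal papilla cells, against 2.31% in hair matrix cells. The medians of the 51 entries with a mean of at least 1000 RPM were 3.62% and 3.84%, so miR-21-5p lay slightly above the median in dermal papilla cells and below it in hair matrix cells. For miR-21-3p the coefficient of variation was 23.1% and 13.8% in dermal papilla and hair matrix cells. The chi-square statistic of its reads per degree of freedom was 1.76 and 1.38, which counting noise alone can give (chi-square p = 0.172 and 0.252), so its depth of at most 84 reads limits what can be seen.

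As a share of all listed reads, miR-21-5p took 35.0%, 34.8% and 33.2% in the dermal papilla libraries, against 48.1%, 47.1% and 47.1% in the hair matrix libraries. In hair matrix cells nearly every second listed read was this single sequence. The difference in mean share was -13.1 percentage points, dermal papilla minus hair matrix (exact two-sided permutation p = 0.1, the smallest that 3 against 3 libraries can give). Wilson 95% intervals of a library's share spanned less than the difference between any of the libraries of different cell type, for example 33.17% to 33.22% in dermal papilla replicate 3 and 47.06% to 47.11% in hair matrix replicate 3. They cover counting error only, since PCR copies are not independent molecules. At this depth they also part libraries of 1 cell type, for example dermal papilla replicate 1 (34.97% to 35.02%) from replicate 3. The chi-square statistic of miR-21-5p reads per degree of freedom was 12973 in dermal papilla and 6843 in hair matrix cells, far above counting noise.

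The distance to the next entry differed between the cell types. In dermal papilla cells let-7i, a let-7 family member known to hold back growth genes, was second, and miR-21-5p stood 2.26, 2.21 and 2.04 times above it. In hair matrix cells miR-184, a miRNA of corneal and other surface epithelia, was second, and miR-21-5p stood 5.92, 5.88 and 5.59 times above it. The ratios did not overlap between the cell types. When reads were summed over entries that share a seed, the miR-21-5p seed still came before all others, although it has 1 member and the let-7 seed GAGGTAG has 9. The let-7 seed held 23.5% ± 0.242 of listed reads in dermal papilla cells, against 15.2% ± 0.294 in hair matrix cells.

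**Figure D2:**
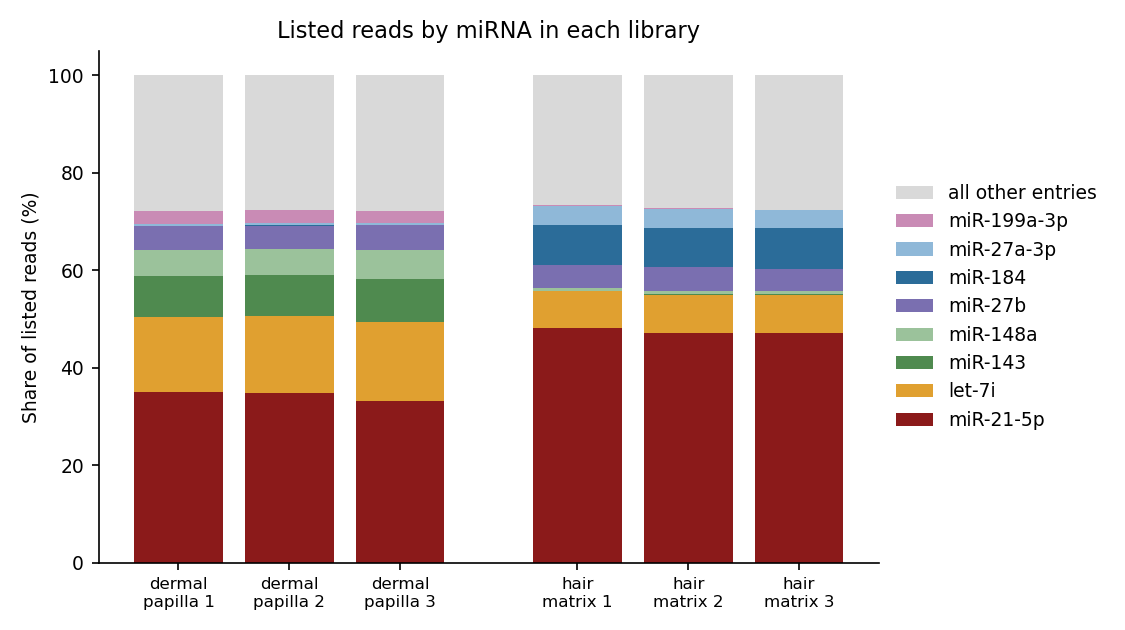
Share of listed reads (%) taken by miR-21-5p and 7 other abundant miRNAs in each library, dermal papilla libraries on the left and hair matrix libraries on the right, with all other entries in grey. The miR-21-5p segment covers 33.2% to 35.0% of dermal papilla reads and 47.1% to 48.1% of hair matrix reads.

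Ratios to single abundant miRNAs do not depend on how a library is scaled. The ratio of miR-21-5p to miR-27b, a miRNA of vessel and fat biology whose own RPM did not pass the test, was 7.09, 7.41 and 6.59 in dermal papilla libraries, against 10.1, 9.35 and 10.3 in hair matrix libraries. To let-7f the ratio was 14.7, 14.2 and 15.5 in dermal papilla libraries, against 20.5, 19.2 and 19.4 in hair matrix libraries. To let-7i it was 2.17 ± 0.113 in dermal papilla cells, against 6.10 ± 0.182 in hair matrix cells. All 3 ratios were lower in every dermal papilla library than in every hair matrix library (exact permutation p = 0.1 for each of the 3, the smallest possible). Such a ratio gives unequal change of its members, not which of them changed.

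In RPM, the lower miR-21-5p of dermal papilla cells was balanced by other listed entries. miR-21-5p was lower by 94671 RPM in dermal papilla cells. This is 40.5% of the RPM differences summed over all entries that were lower there. miR-184 stood at 331 RPM in dermal papilla cells, against 59426 RPM in hair matrix cells, the second largest difference in that sum. On the other side stood miR-143, a miRNA of fibroblasts and smooth muscle, with 61652 RPM in dermal papilla cells against 898 RPM in hair matrix cells. let-7i was at 115013 and 56418 RPM in dermal papilla and hair matrix cells, and miR-148a, known to repress DNMT1, at 40437 and 4421 RPM. Reads outside the listed entries made up 273456 RPM in dermal papilla cells, against 274083 RPM in hair matrix cells, so the balance was among listed entries.

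How evenly the reads were spread depended on whether miR-21 was counted. The effective number of entries (the exponential of the Shannon entropy of read shares) was 15.9 ± 0.381 in dermal papilla cells, against 11.9 ± 0.242 in hair matrix cells. With both miR-21 arms left out it was 25.4 ± 0.309 in dermal papilla cells, against 29.98 ± 0.241 in hair matrix cells. The order of the cell types thus turned when miR-21 was removed, and in both cases the libraries did not overlap. Of the other listed reads, 50% lay in 4 entries in every dermal papilla library and in 5 in every hair matrix library.

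The listed reads of the arms were very unequal in number. How the counting or the reference sequence used by the authors bears on the few miR-21-3p reads is not stated in the sources, so the ratio is one of listed reads. Per read of miR-21-3p there were 148793, 235184 and 180299 reads of miR-21-5p in the dermal papilla libraries, against 103863, 130305 and 119578 in the hair matrix libraries. On the log2 scale, the ratio of group means was 17.47 in dermal papilla cells, against 16.83 in hair matrix cells. Among the other 31 hairpins with both arms tested, the largest log2 ratio of either sign was 11.00 in dermal papilla cells, against 9.27 in hair matrix cells, both for miR-17, a member of the proliferation-linked miR-17-92 cluster. The median size was 2.70 in dermal papilla cells, against 2.87 in hair matrix cells. miR-17-3p was at 0.333 and 1.57 RPM in dermal papilla and hair matrix cells, so the ratio of 11.00 rests on an arm below 1 RPM. The comparison covers 32 of the 60 hairpins with both arms listed. The remaining hairpins had an arm too scarce to be tested, which favours large ratios, and miR-21 was not compared with them. let-7a, whose 5p arm is also the guide, had log2 ratios of 8.85 and 7.74 in dermal papilla and hair matrix cells, and miR-27a, whose 3p arm is the guide, -2.53 and -4.69.

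In miR-21-3p reads per 1000000 reads of both arms, the dermal papilla libraries had 6.72 (exact 95% interval 4.82 to 9.12), 4.25 (2.78 to 6.23) and 5.55 (3.79 to 7.83). The hair matrix libraries had 9.63 (7.68 to 11.9), 7.67 (5.91 to 9.80) and 8.36 (6.49 to 10.6). The points did not overlap between the cell types, but the intervals of counting error did. The difference in arm ratio did not pass the test. On the log2((5p + 1)/(3p + 1)) scale it was 0.27 ± 0.13 (SE), dermal papilla minus hair matrix, with a limma adjusted p of 0.0948 over 32 hairpins. On this scale the libraries of the cell types overlapped, whereas 75% of hairpins had no overlap (37.5% in each direction). With 0.5 of a read added to each arm in place of 1 RPM, an alternative chosen after the data were seen, it was 0.64 ± 0.21 (limma adjusted p = 0.0522). An adjusted p under 0.05 was found for 62.5% of the hairpins (31.2% in each direction), among them miR-27a, with a difference of 2.16 (limma adjusted p = 3.52e-06), and let-7a, with 1.08 (limma adjusted p = 0.000188). From group means these 2 differed by 2.16 and 1.11. Where an arm lay below 1 RPM in a cell type, the fitted value partly follows the level, not arm use. Fitted differences of miR-149 and miR-411c were 2.58 and 2.26, against -0.95 and -1.06 from group means. The shares of 62.5% and 75% include such hairpins. With 10 in place of 1 added, which is more than any library had of miR-21-3p, the difference of miR-21 turned to -0.28 (limma adjusted p = 0.000198).

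**Figure D3:**
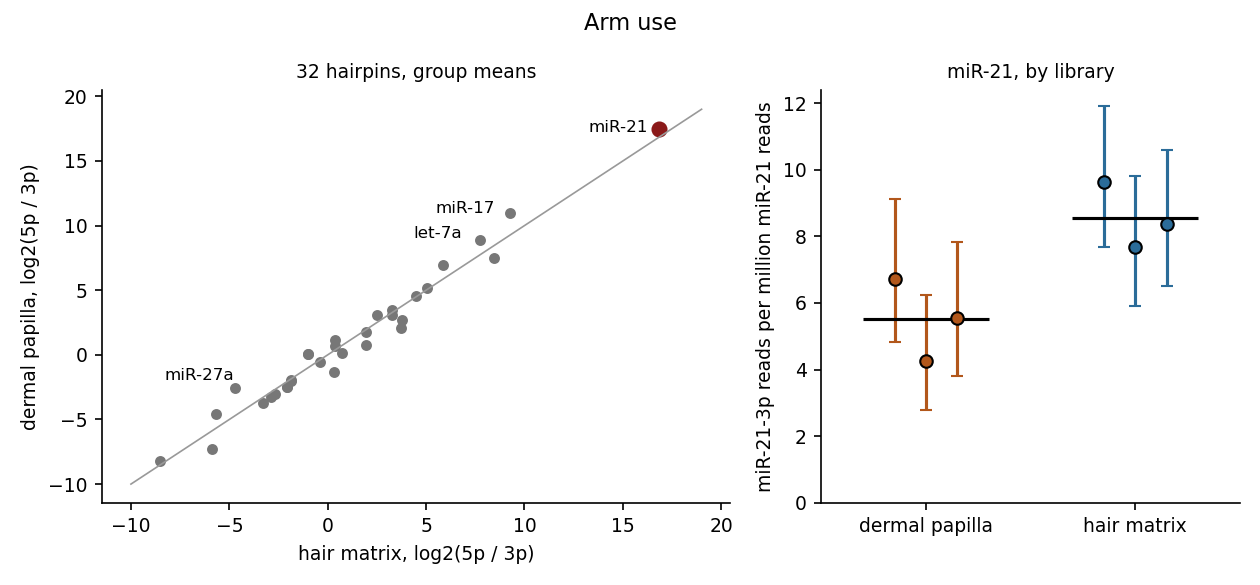
Left, log2 ratio of the 5p to the 3p arm in dermal papilla cells (y axis) and hair matrix cells (x axis) for 32 hairpins, from group mean RPM, with the line of equal ratios; miR-21 lies farthest out, at 17.47 and 16.83. Right, miR-21-3p reads per 1000000 miR-21 reads in each library, with exact 95% binomial intervals and group means as lines; the dermal papilla points lie at 4.25 to 6.72 and the hair matrix points at 7.67 to 9.63.

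Because miR-21-5p takes so many reads, its level enters the scaling of every other entry. Without both arms, the listed entries summed to 477007 ± 2576 RPM in dermal papilla cells, against 381708 ± 977 RPM in hair matrix cells. Rescaling each library to those other listed reads lowered the log2 changes of entries with at least 10 RPM by a median of 0.32, as the shift of -0.32 for dermal papilla minus hair matrix. The median log2 change of all 503 entries moved to -0.28, from -0.01 with the scaling as deposited. miR-21-5p itself then had a log2 change of -0.79 ± 0.036 (limma adjusted p = 5.39e-07), and miR-21-3p of -0.95 ± 0.13 (limma adjusted p = 0.000251). Relative to the median of all entries, miR-21-5p was at -0.45 as deposited and at -0.51 without miR-21 in the scaling. The rescaling applies 1 factor per library, so this step comes from the added 1, which makes the shift of scarce entries smaller. The median shift was -0.26 over all entries. It is no move of miR-21-5p against the other entries.

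The rescaling changed which entries were called, meaning an adjusted p under 0.05 in limma and at least 2-fold. As deposited, 127 entries were called higher and 100 lower in dermal papilla cells, or 25.2% and 19.9% of those tested. Without miR-21 in the scaling the counts were 115 and 131, so dermal papilla-high entries made up 46.7% of calls in place of 55.9%. Of the calls, 115 higher and 100 lower ones were shared by both scalings. Since the rescaling lowers nearly every entry by a like amount, lost calls can only be higher ones and gained calls only lower ones, and their number is what was measured. There were 12 lost and 31 gained calls. Of all tested entries, 47 changed the sign of their log2 change, and 4 of them had an adjusted p under 0.05 in opposite directions under the scalings. TMM scaling (trimmed mean of M values) left the counts near those as deposited, at 127 and 103, with 55.2% of calls higher. The median log2 change was then -0.03, and that of miR-21-5p -0.49 (limma adjusted p = 3.73e-06). Median centring and quantile normalization gave counts nearer to those without miR-21 in the scaling. They were 109 and 137 (44.3% of calls higher) with median centring, and 112 and 128 (46.7%) with quantile normalization.

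The most abundant lost call was let-7i, with a log2 change of 1.03 as deposited and 0.71 without miR-21 in the scaling. miR-296-3p had 1.27 and 0.95, miR-3432a 1.27 and 0.95, miR-3613a 1.16 and 0.84, and miR-452 1.19 and 0.87, in the same order. The most abundant gained call was miR-378, which lies in the metabolic regulator gene PPARGC1B in mammals, with -0.91 and -1.23. miR-7857-3p had -0.85 and -1.17, miR-27a-5p -0.87 and -1.19, miR-186 -0.92 and -1.24, and miR-6119-5p -0.68 and -1.0. The 12 lost calls lay between 1.03 and 1.27 as deposited, and between 0.71 and 0.99 after rescaling.

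Of 4 abundant miRNAs that did not pass the test as deposited, 3 passed it without miR-21 in the scaling, and let-7a-5p did not. miR-27b was at 35522 RPM in dermal papilla cells, against 34797 RPM in hair matrix cells, with a log2 change of 0.03 (limma adjusted p = 0.535) as deposited and -0.29 (limma adjusted p = 0.00045) without miR-21. let-7f moved to -0.37 (limma adjusted p = 0.00069) and let-7g to -0.28 (limma adjusted p = 0.000192), against -0.05 and 0.04 as deposited. let-7a-5p moved to -0.22 (limma adjusted p = 0.0506), against 0.10 as deposited. All 4 moved by nearly the same amount, since the rescaling applies 1 factor per library, so these passes are not results separate from that shift. The SE after rescaling was 0.090 for let-7a-5p, against 0.043 for miR-27b, 0.060 for let-7f and 0.036 for let-7g. Of the 14 entries that are among the 10 most abundant of either cell type, 5 passed the test in each direction as deposited, and 5 were higher and 8 lower in dermal papilla cells without miR-21.

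**Figure D4:**
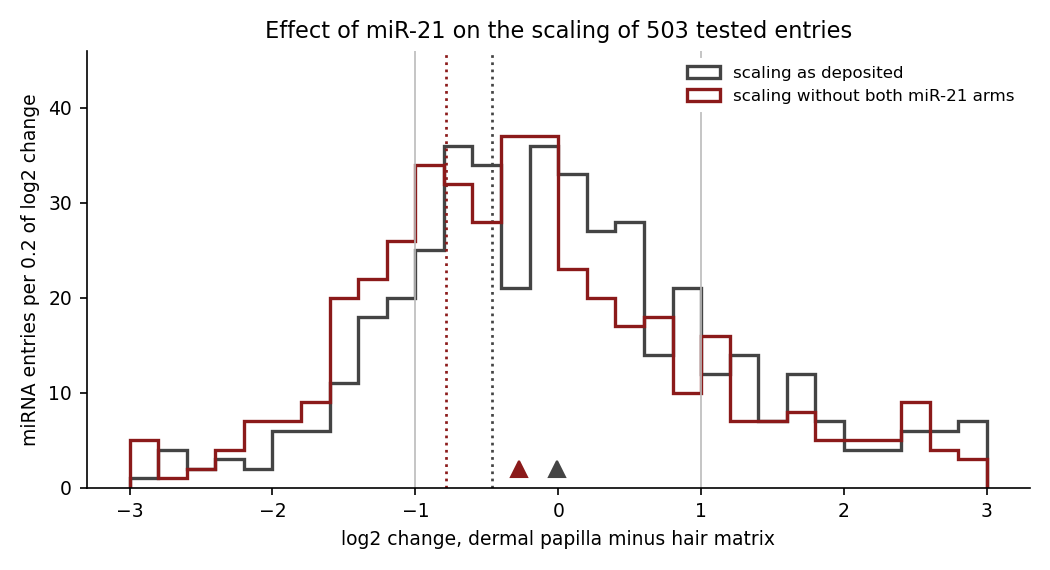
Number of entries per 0.2 of log2 change, dermal papilla minus hair matrix, with the scaling as deposited (dark grey) and without both miR-21 arms (red), for the tested entries between -3 and 3 (76 and 75 of the 503 lie outside). Triangles mark the medians, -0.01 and -0.28, dotted lines miR-21-5p, -0.46 and -0.79, and thin grey lines the 2-fold limits.

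Among miRNAs known to be induced, like miR-21, by inflammatory and growth factor pathways (AP-1, STAT3, NF-kB), most were lower in dermal papilla cells. Of 8 listed entries 7 were tested, of which 5 were called lower and 1 higher in dermal papilla cells, against 19.9% called lower and 25.2% higher of all tested entries. Their median log2 change was -2.60, and that of all tested entries -0.01. miR-221 and miR-222, repressors of KIT, were at 1608 ± 56.9 and 57.5 ± 0.582 RPM in dermal papilla cells, against 5292 ± 198 and 501 ± 12.2 RPM in hair matrix cells. miR-146b, a brake on NF-kB, stood at 20.0 ± 1.96 RPM in dermal papilla cells, against 181 ± 10.4 RPM in hair matrix cells, and its relative miR-146a was at 108 ± 2.32 RPM in dermal papilla cells, against 665 ± 77.1 RPM. miR-31, a regulator of the hair cycle in mice, was at 16.4 ± 2.16 RPM in dermal papilla cells, against 106 ± 1.43 RPM in hair matrix cells. miR-155, an immune-response miRNA, was at 395 ± 7.17 RPM in dermal papilla cells against 119 ± 4.24 RPM in hair matrix cells. miR-181b had a log2 change of 0.55 (limma adjusted p = 1.21e-05), short of 2-fold, and miR-223 was too low to be tested. The counts of calls for this list were the same without miR-21 in the scaling.

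Of 8 tested miRNAs of activated fibroblasts, among which miR-21 is usually counted, 6 were called higher and 1 lower in dermal papilla cells, against 25.2% and 19.9% of all tested entries. Their median log2 change was 5.88, and that of all tested entries -0.01. Of the 8, 4 (miR-145, miR-214 and both arms of miR-199a) are also among the 5 mesenchymal markers used above to check the cell types, so this count is not separate from that check. miR-199b was at 3626 ± 85.8 RPM in dermal papilla cells, against 48.5 ± 4.98 RPM in hair matrix cells. miR-145 was 97.2-fold, miR-199a-3p 73.4-fold and miR-214 68.8-fold higher in dermal papilla cells. miR-34a, a p53 target, was the entry called lower, at 45.3 ± 2.27 RPM in dermal papilla cells, against 171 ± 6.49 RPM in hair matrix cells. miR-192 had a log2 change of -0.73, and -1.05 without miR-21 in the scaling, where it was called. The lists were chosen with earlier results of these data known.

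**Figure D5:**
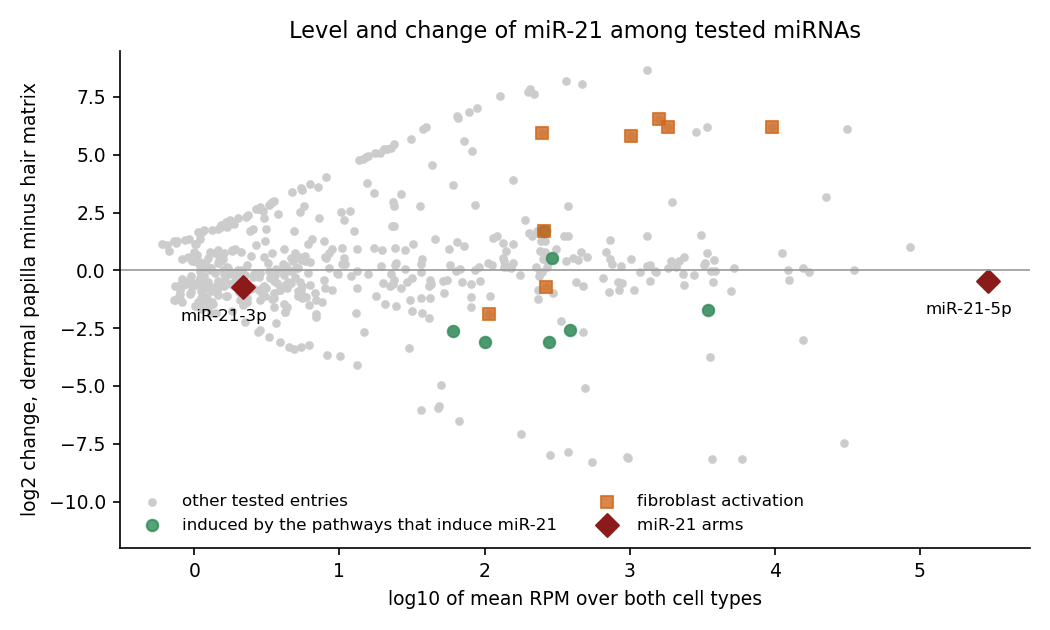
Log2 change, dermal papilla minus hair matrix, against the log10 of mean RPM for the 503 tested entries, with red diamonds for the arms of miR-21 (-0.46 and -0.74), green circles for 7 miRNAs induced by the pathways that induce miR-21, and orange squares for 8 miRNAs of fibroblast activation (miR-155 is in both lists). The green points lie mostly below 0 and the orange ones mostly above.

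miR-21-5p carries the letters CAGAC, which in human cells have been described as the site where SMAD proteins bind the primary transcripts of miR-21 and miR-199a and aid their cleavage. The letters were searched on the listed strand of each entry and occur in 61 of 2853 entries (2.14%) and in 11 of 503 tested ones (2.19%). They are shown in capitals for the entries with cattle names, since these changed in such different ways.
miR-21-5p: tagcttatCAGACtgatgttgact
miR-199a-5p: cccagtgttCAGACtacctgtt
miR-105a: tcaaatgctCAGACtcctgtggt
miR-214: acagcaggcaCAGACaggcagt
miR-215: atgacctatgaattgaCAGACa
miR-421: atcaaCAGACattaattgggcgc
miR-3604: taaccaatgtgCAGACtactgt

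Of the 10 tested entries other than miR-21-5p with these letters, 5 were called higher and 1 lower in dermal papilla cells, against 25.2% and 19.9% of all tested entries. Their median log2 change was 1.07. miR-199a-5p and miR-214 are also among the mesenchymal markers used above, so the count of 5 is not separate from that check. The sequence of miR-3604 holds the reverse complement of the seed of another of these markers, miR-199a-3p (CAGTAGT). In dermal papilla cells miR-3604 was 63.3-fold and miR-199a-3p 73.4-fold higher. Whether miR-3604 is separate from that marker was not tested. miR-105a and the entry called lower passed the filter only through the cell type in which they were higher. miR-199a-5p was at 1997 ± 85.97 RPM in dermal papilla cells, against 35.2 ± 6.11 RPM in hair matrix cells. miR-3604 was at 5621 ± 204 RPM in dermal papilla cells, against 88.8 ± 11.7 RPM in hair matrix cells. miR-105a had 9.36 ± 0.256 RPM in dermal papilla cells but no read in any hair matrix library, where 3 reads lie at 0.121 to 0.125 RPM. miR-421 was at 86.2 ± 0.975 and 85.5 ± 2.94 RPM in dermal papilla and hair matrix cells (limma adjusted p = 0.856). miR-215 had a log2 change of 1.25 as deposited and was among the lost calls without miR-21 in the scaling (0.98), which left 4 called higher. A match of these letters describes the sequence only.

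The entries with a mean of at least 100 RPM whose log2 values followed miR-21-5p most closely over the 6 libraries were miR-27a-3p, miR-99a-5p, miR-2284x, miR-24-3p and miR-34a, with Pearson correlations of 0.990, 0.989, 0.989, 0.988 and 0.988 among 129 candidates. These values mostly follow the step between the cell types, which all libraries of a type share. The steps had different sizes, with a log2 change of -3.02 for miR-27a-3p, -0.43 for miR-24-3p and -0.14 for miR-99a-5p. miR-24-3p, 1 source of which is the cluster of miR-27a, was the one nearest in size to miR-21-5p. It was at 10627 ± 178 RPM in dermal papilla cells, against 14328 ± 299 RPM in hair matrix cells. For miR-21-3p the closest were miR-24-3p, miR-2284x, miR-23a, miR-205 and miR-7857-5p, at 0.965 to 0.948. The arms of miR-21 correlated with each other at 0.943.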

How the data were processed

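Small RNA was sequenced from 3 dermal papilla and 3 hair matrix libraries. The values were deposited by the authors as TPM and are RPM, since in each library 100% of them are whole multiples of 1 step (tolerance 0.001 read). Trimmomatic, HISAT2 (2.2.1.0) and also DESeq (1.20.0) are listed, per the submitters' processing notes, which state no roles. The sources used here state no genome build, miRNA reference or rule for multi-mapping reads. Entries reaching 1 RPM in 3 or more libraries were tested (503, of which 413 have cattle names) with limma 3.58.1 (R 4.3.3) on log2(RPM + 1), with a variance trend and Benjamini-Hochberg adjustment over all of them. Arm ratios were fitted likewise over 32 of the 60 hairpins with both arms listed. Scaling alternatives kept the tested entries fixed. edgeR 4.0.16 and DESeq2 1.42.0 were run on recovered whole reads, and ViennaRNA 2.7.2 folded the arms. On simulated data for the comparison of 503 entries, 88% of the 1.5-fold and 100% of the 2-fold changes passed with the sign they were given. Of unchanged entries 1.65% passed, and of 15 unchanged hairpins in the arm fit 6.67%. Simulated entries were drawn independently, with as many raised as lowered, so the effect of an abundant entry on the scaling of others was not simulated. Members, lists and tests were chosen with earlier results of these data known. Named entries are the arms, entries sharing a seed, the 10 most abundant of each cell type, list members, the 5 most correlated with each arm, the 5 most abundant with a lost or gained call, and hairpins with the highest totals. miR-17 and miR-3604 were named after their values were seen.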

Additional observations from a re-analysis of the deposited data

How the results depend on the processing

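The direction of both arms held in every alternative that gave a value, except that quantile normalization set miR-21-5p to a log2 change of 0, because the top entry of each library is given the same value. Otherwise miR-21-5p ranged between -0.79 and -0.40 and miR-21-3p between -1.13 and -0.19, all with an adjusted p under 0.05. Leaving out 1 library at a time, with the tested entries held fixed, gave -0.48 to -0.43 for miR-21-5p, -0.84 to -0.65 for miR-21-3p and 0.17 to 0.36 for the arm ratio. The arm ratio turned to -0.28 (limma adjusted p = 0.000198) with a pseudocount of 10, which is larger than the level of miR-21-3p. With the replicate number as a block it was 0.27 with an adjusted p of 0.0081. Deviations of same-numbered libraries from their group means correlated at 0.14, 0.08 and -0.27 over all tested entries. Over entries above 10 RPM they correlated at 0.21, -0.53 and -0.38, and differently numbered libraries at -0.55 to 0.65. With 3 libraries per cell type, these values cannot tell whether the numbers pair libraries. The block left the other results on their side of the threshold. Entries called higher and lower in dermal papilla cells were 127 and 100. They became 77 and 40 with a pseudocount of 10, 80 and 47 with a filter of 10 RPM, and 212 and 204 without a fold minimum. The counts were 143 and 141 with edgeR, 151 and 135 with DESeq2, and 127 and 103 with TMM scaling. After median centring they were 109 and 137, and after quantile normalization 112 and 128. The filter of 10 RPM removed miR-21-3p, so it gave no value for that arm or the arm ratio. Depth limits miR-21-3p, with 26 to 84 reads per library.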
